A study of Rattus norvegicus with 48 samples.

Results

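A set of 6 rat genes of cell signalling was followed in the extensor digitorum longus, a fast-twitch muscle of the lower leg: the receptor genes Lpar6, Uts2r and Relt, the ligand gene Efna1, the signalling regulator gene Rgs4 and the ubiquitin ligase gene Rnf125. They are 6 of the 14557 genes that have a row of their own on the array, and all 6 are among the 9558 genes bright enough to test. The genes were selected on these same measurements, because their level was lower after exhaustion, or because the difference after exhaustion was lower in one rat line or in old rats. Their differences after exhaustion, and how these differ by line and by age, are therefore a description without a test. Each gene is represented by 1 probe set.

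RNA of frozen muscle was hybridised to 48 arrays of the Affymetrix type Rat Gene ST 2.1. The labels form 8 groups of 6 arrays: young or old rats, of the HCR or the LCR line, either at rest or exhausted. The abbreviations commonly stand for rats selected over generations for a high (HCR) or a low (LCR) capacity to run, which the labels do not spell out. Age in months, running time, the interval between exhaustion and sampling, and batch are not given in the labels, so line and work done cannot be told apart in exhausted rats. Titles carry different animal numbers, except that young HCR rest replicate 6 has 2 numbers in its title. The 5 fast fibre markers had a mean level of 13.1 or 13.2 on the log2 scale in each of the 8 groups. That goes with a fast-twitch muscle but does not single out this one. The mean of 5 slow fibre markers ranged from 8.31 in resting old LCR to 10.35 in resting young HCR.

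Values are log2 expression, so that a difference of 1 is a doubling, and levels of different genes are not compared. Arrays correlated with each other at Pearson r between 0.940 and 0.979 over probe sets. The 3 arrays with the highest lower quartile of values were replicate 1 of the old exhausted HCR group, replicate 1 of the young exhausted HCR group and replicate 2 of the resting old LCR group. Without them, none of the 42 values of the 6 genes in the 7 comparisons below moved by more than 0.10, and no call of the 6 genes changed. In whole muscle, fewer cells of a type and less RNA per cell cannot be told apart.

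Lpar6 encodes a receptor for lysophosphatidic acid, a lipid messenger, and is coupled to G proteins. Uts2r encodes the receptor for urotensin II, a vasoactive peptide. RGS4 shortens signals from receptors coupled to G proteins by speeding the return of the G protein to its resting state. Efna1 encodes ephrin-A1, a ligand anchored to the cell surface that binds Eph receptors on neighbouring cells and is prominent in blood vessels. RELT belongs to the tumour necrosis factor receptor superfamily, and RNF125 marks proteins for degradation, among them the virus sensor RIG-I and the kinase JAK1.

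Lpar6, Rgs4, Efna1 and Rnf125 were the genes with lower levels in exhausted HCR rats of both ages, and the sequence around their annotated starts is shown for that reason. The windows of 300 bases end shortly after the start of the gene, are given 5′ to 3′ on the strand of the gene, and come from RefSeq on build GRCr8. They lie at chr15:54825860-54826159 on the plus strand for Lpar6, chr13:84475835-84476134 on the minus strand for Rgs4, chr2:176986772-176987071 on the minus strand for Efna1 and chr18:12528745-12529044 on the plus strand for Rnf125. Capitals mark letters that match 1 of the 7 motifs searched on both strands.
Lpar6: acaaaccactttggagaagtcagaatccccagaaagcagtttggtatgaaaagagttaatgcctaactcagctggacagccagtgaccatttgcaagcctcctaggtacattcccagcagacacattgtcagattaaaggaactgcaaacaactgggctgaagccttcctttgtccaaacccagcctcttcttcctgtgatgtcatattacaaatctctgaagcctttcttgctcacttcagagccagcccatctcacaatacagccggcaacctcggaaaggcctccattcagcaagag
Rgs4: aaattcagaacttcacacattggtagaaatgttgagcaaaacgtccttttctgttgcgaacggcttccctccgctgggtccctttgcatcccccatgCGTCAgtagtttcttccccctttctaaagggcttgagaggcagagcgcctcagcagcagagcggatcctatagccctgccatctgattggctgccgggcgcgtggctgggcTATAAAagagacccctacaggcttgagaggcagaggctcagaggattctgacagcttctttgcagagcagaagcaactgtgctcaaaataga
Efna1: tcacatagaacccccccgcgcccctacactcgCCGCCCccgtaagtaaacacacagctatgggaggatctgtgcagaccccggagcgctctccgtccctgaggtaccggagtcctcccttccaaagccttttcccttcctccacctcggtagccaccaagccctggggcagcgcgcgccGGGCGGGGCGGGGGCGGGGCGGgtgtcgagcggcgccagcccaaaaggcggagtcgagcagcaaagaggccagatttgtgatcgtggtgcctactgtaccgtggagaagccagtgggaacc
Rnf125: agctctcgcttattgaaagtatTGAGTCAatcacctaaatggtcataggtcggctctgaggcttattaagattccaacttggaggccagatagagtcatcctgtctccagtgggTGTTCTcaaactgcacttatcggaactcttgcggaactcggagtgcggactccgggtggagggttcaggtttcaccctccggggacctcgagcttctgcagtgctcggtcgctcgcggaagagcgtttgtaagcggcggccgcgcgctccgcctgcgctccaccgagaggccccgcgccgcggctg

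The motifs were the cyclic AMP response element TGACGTCA and its half-site TGACG, the AP-1 site TGANTCA, the E-box CACGTG, the glucocorticoid half-site TGTTCT, the TATA box TATAAA and the GC box GGGCGG. The cyclic AMP half-site lies within its full element. Rgs4 held a TATA box at -42 and a cyclic AMP half-site at -153, counted in bases from the annotated start to the first base of the match. Efna1 held 5 GC boxes, 4 of them at -71, -66, -60 and -55, and was rich in G and C at 66.0% against a median of 51.7%. Rnf125 held an AP-1 site at -228 and a glucocorticoid half-site at -136, and none of the 7 motifs was found in the Lpar6 window. No motif was found in more than 1 of these 4 windows. Over all 33469 windows of this length the TATA box was in 14.22%, the GC box in 33.06%, the AP-1 site in 7.33%, the E-box in 6.42%, the cyclic AMP element in 1.83% and its half-site in 21.2%, and the glucocorticoid half-site in 20.68%. Of the other two genes, Relt held 2 cyclic AMP half-sites and a glucocorticoid half-site, and Uts2r held none of the motifs.

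The genes fell into 2 patterns. Lpar6, Rgs4, Efna1 and Rnf125 were lower in exhausted than in resting HCR rats at both ages, with smaller differences in LCR rats. In Uts2r and Relt the difference after exhaustion varied with age, in unlike ways. Uts2r was higher, not lower, after exhaustion in young rats, and Relt was lower mainly in old LCR rats. The split was not clean. The difference in old minus that in young rats was 0.47 ± 0.17 for Lpar6 and 0.34 ± 0.17 for Rgs4. For Efna1 and Rnf125 it was 0.16 ± 0.11 and 0.10 ± 0.09. The difference in HCR minus that in LCR was 0.62 ± 0.24 for Uts2r and 0.18 ± 0.15 for Relt. In the average over the 4 combinations of line and age, 5 of the 6 genes were lower after exhaustion, against 9.61% of all tested genes that fell in that comparison at an adjusted p under 0.05, and Uts2r was higher, against 6.52% that rose. Those contrasts served to choose the genes, so nothing is read from these counts.

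**Figure D1:**
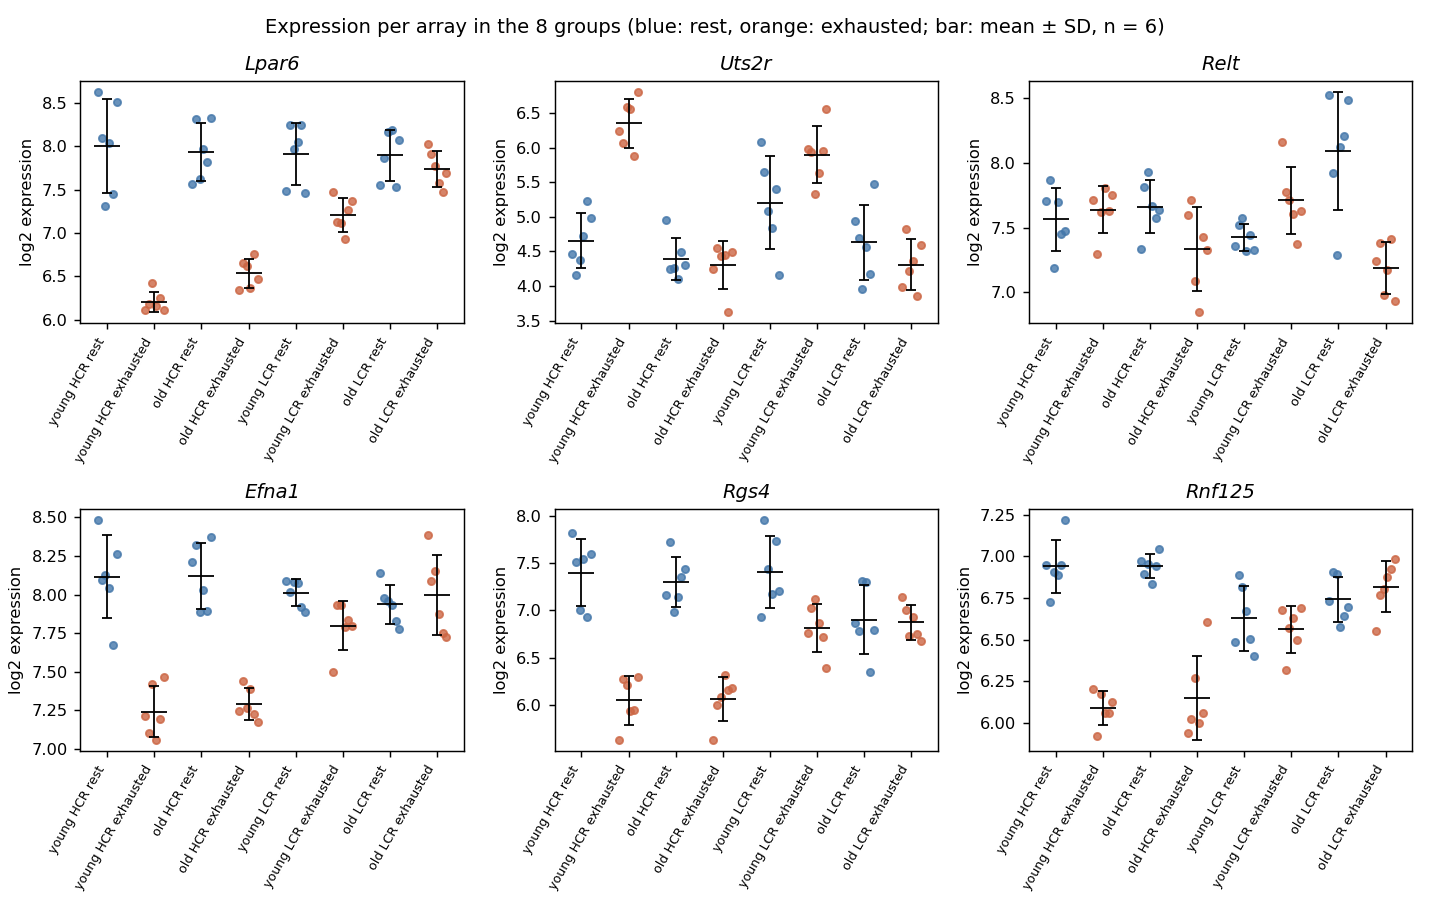
Log2 expression of the 6 genes (vertical axes) on each of the 48 arrays by group (horizontal axes); points are arrays, horizontal bars are group means and whiskers 1 SD with n = 6. Lpar6, Efna1, Rgs4 and Rnf125 are separated between rest and exhaustion in both HCR ages, and Uts2r is high in the exhausted young groups.

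Lpar6, the lysophosphatidic acid receptor gene, was lower after exhaustion in HCR rats of both ages. In young HCR rats it lay between 7.31 and 8.63 at rest (median 8.07) and between 6.11 and 6.42 after exhaustion (median 6.17). In old HCR rats it lay between 7.56 and 8.33 at rest (median 7.89) and between 6.34 and 6.76 after exhaustion (median 6.54). All exhausted HCR arrays were thus below all resting HCR arrays of their age. Resting young LCR arrays spanned 7.46 to 8.25 (median 8.01) and exhausted ones 6.93 to 7.47 (median 7.19). Resting old LCR arrays spanned 7.53 to 8.19 (median 7.97) and exhausted ones 7.47 to 8.03 (median 7.73). In young LCR rats 5 of 6 exhausted arrays lay below the lowest resting array, and in old LCR rats the 2 states overlapped. The fitted differences, exhausted minus rest, were -1.80 ± 0.17 (SE, 6 arrays per group) in young HCR, a 3.48-fold lower level, and -1.40 ± 0.17 in old HCR, -0.70 ± 0.17 in young LCR and -0.15 ± 0.17 in old LCR.

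Rgs4 followed the same order. In young HCR rats its values were 6.93 to 7.82 at rest (median 7.53) and 5.63 to 6.29 after exhaustion (median 6.07). In old HCR rats they were 6.98 to 7.72 at rest (median 7.26) and 5.63 to 6.31 after exhaustion (median 6.12). The states did not overlap at either age. Among young LCR rats Rgs4 ran from 6.93 to 7.96 at rest (median 7.32) and from 6.39 to 7.12 after exhaustion (median 6.81), with 4 of 6 exhausted arrays below the lowest resting one. Among old LCR rats it ran from 6.35 to 7.31 at rest (median 6.82) and from 6.67 to 7.14 after exhaustion (median 6.84), and the exhausted arrays lay inside the resting range. The differences were -1.35 ± 0.17 in young HCR, -1.24 ± 0.17 in old HCR, -0.59 ± 0.17 in young LCR and -0.03 ± 0.17 in old LCR. Resting old LCR rats had less Rgs4 than resting young LCR rats, with a difference of -0.51 ± 0.17, so the small difference in old LCR started from a lower level.

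Efna1, the ephrin ligand, was lower after exhaustion in HCR rats at both ages. In young HCR rats it spanned 7.67 to 8.49 at rest (median 8.11) and 7.06 to 7.47 after exhaustion (median 7.20). In old HCR rats it spanned 7.89 to 8.38 at rest (median 8.12) and 7.18 to 7.44 after exhaustion (median 7.25). The 2 states were separate in both. Young LCR rats had 7.89 to 8.08 at rest (median 8.05) and 7.50 to 7.93 after exhaustion (median 7.82). Old LCR rats had 7.78 to 8.14 at rest (median 7.95) and 7.72 to 8.38 after exhaustion (median 7.98), where the exhausted range enclosed the resting one. The differences were -0.87 ± 0.11, -0.83 ± 0.11, -0.21 ± 0.11 and 0.06 ± 0.11 in young HCR, old HCR, young LCR and old LCR.

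Rnf125 had the most uniform levels within groups. Young HCR rats had 6.72 to 7.22 at rest (median 6.93) and 5.92 to 6.20 after exhaustion (median 6.09). Old HCR rats had 6.84 to 7.05 at rest (median 6.95) and 5.94 to 6.61 after exhaustion (median 6.04). Again no exhausted HCR array reached the resting ones. Young LCR rats had 6.40 to 6.89 at rest (median 6.59) and 6.31 to 6.69 after exhaustion (median 6.60). Old LCR rats had 6.58 to 6.91 at rest (median 6.71) and 6.55 to 6.98 after exhaustion (median 6.84). In LCR rats the states overlapped at both ages. The differences were -0.85 ± 0.09 in young HCR, -0.79 ± 0.09 in old HCR, -0.07 ± 0.09 in young LCR and 0.08 ± 0.09 in old LCR.

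Without overlap, exhausted arrays lay below resting ones for 4 of the 6 genes in young HCR rats, where 2.3% of all tested genes did so, and for the same 4 genes in old HCR rats, where 1.16% did. In young LCR rats 0 of the 6 did, against 0.534% of all tested genes, and in old LCR rats 0 of the 6, against 0.398%. These counts were the same without the 3 arrays named above. For Lpar6, Rgs4, Efna1 and Rnf125 the difference in HCR minus that in LCR was -1.18 ± 0.17, -0.99 ± 0.17, -0.77 ± 0.11 and -0.83 ± 0.09. A lower response in HCR was called for 1.04% of all tested genes and a higher one for 1.07%, and the 4 genes were chosen by this measure.

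**Figure D2:**
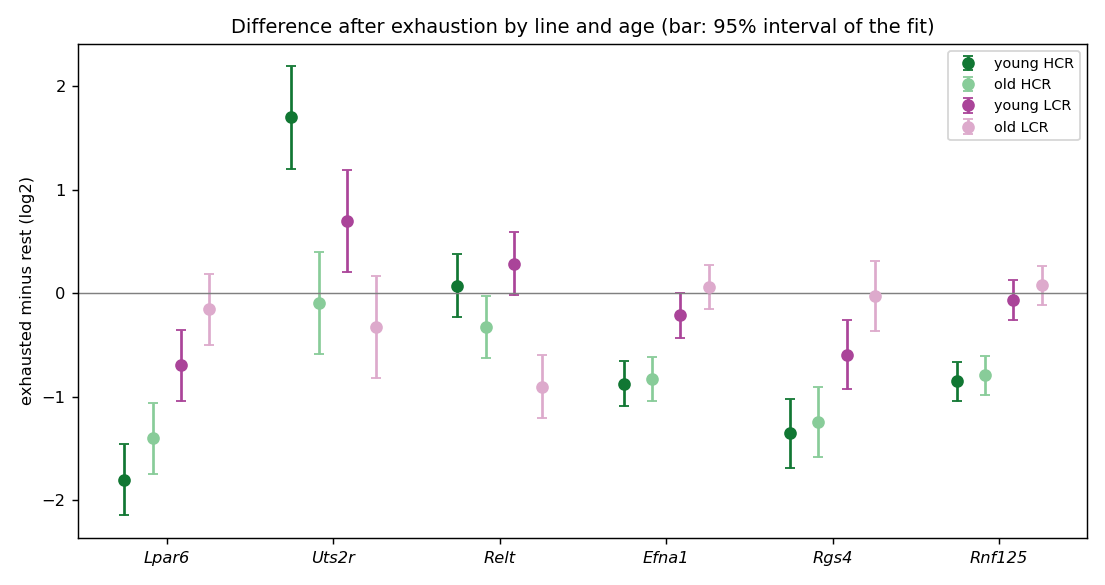
Difference in log2 expression between exhausted and resting rats (vertical axis) for the 6 genes (horizontal axis) in each line and age; points are fitted differences and bars their 95% intervals. The HCR points of Lpar6, Efna1, Rgs4 and Rnf125 lie between -1.80 and -0.79, and those of Uts2r and Relt order by age.

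Uts2r, the urotensin II receptor gene, had group medians from 4.28 to 6.40 beside a median of 4.54 over all values of the arrays. Young HCR rats had 4.17 to 5.24 at rest (median 4.59) and 5.87 to 6.80 after exhaustion (median 6.40). Young LCR rats had 4.16 to 6.08 at rest (median 5.25) and 5.33 to 6.56 after exhaustion (median 5.94). The exhausted young HCR arrays were all above the resting ones, which 2.79% of all tested genes showed in that comparison, whereas in young LCR rats the states overlapped. Old HCR rats had 4.10 to 4.96 at rest (median 4.28) and 3.62 to 4.55 after exhaustion (median 4.44). Old LCR rats had 3.96 to 5.48 at rest (median 4.63) and 3.86 to 4.82 after exhaustion (median 4.29). In old rats of both lines the states overlapped, at levels around the median of all values. A fall may be hard to see at such levels, which was not tested. The differences after exhaustion were 1.70 ± 0.24 in young HCR, 0.69 ± 0.24 in young LCR, -0.10 ± 0.24 in old HCR and -0.32 ± 0.24 in old LCR. Of all tested genes 0.23% had a lower response in old rats and 0.0209% a higher one. Uts2r (-1.40 ± 0.24) and Relt (-0.79 ± 0.15) were chosen among the former. The rise of Uts2r on average goes against a description of the 6 genes as falling after exhaustion.

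Relt, a member of the tumour necrosis factor receptor superfamily, was lower after exhaustion mainly in old LCR rats. Old LCR rats had 7.29 to 8.52 at rest (median 8.16) and 6.94 to 7.41 after exhaustion (median 7.21), with 4 of 6 exhausted arrays below the lowest resting one. Old HCR rats had 7.34 to 7.93 at rest (median 7.65) and 6.85 to 7.72 after exhaustion (median 7.38). The old LCR group at rest stood highest of the 8 groups. Young HCR rats had 7.19 to 7.87 at rest (median 7.58) and 7.29 to 7.81 after exhaustion (median 7.67). Young LCR rats had 7.32 to 7.57 at rest (median 7.40) and 7.38 to 8.16 after exhaustion (median 7.67). In young rats of both lines the 2 states overlapped. The differences were -0.90 ± 0.15 in old LCR, -0.32 ± 0.15 in old HCR, 0.29 ± 0.15 in young LCR and 0.07 ± 0.15 in young HCR. At rest, Relt was higher in old than in young LCR rats by 0.67 ± 0.15, so that resting levels as well as exhausted ones entered the difference.

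The order of the group means followed from these values. For Lpar6 the 4 resting groups and exhausted old LCR differed from their neighbours in the order by 0.01 to 0.15, less than the within-group SD of 0.30, and below them came young LCR, old HCR and young HCR after exhaustion, at steps of 0.53, 0.68 and 0.33. For Rgs4, Efna1 and Rnf125 the step down to the 2 exhausted HCR groups was 0.75, 0.51 and 0.41, and those 2 groups differed by 0.01, 0.05 and 0.06. Rgs4 also had a step of 0.40 from old HCR at rest to old LCR at rest, above its within-group SD of 0.30. For Uts2r the 3 highest groups were young HCR exhausted, young LCR exhausted and young LCR at rest, and neighbours among the other 5 groups differed by at most 0.24, less than the within-group SD of 0.44. For Relt only the step below old LCR at rest, 0.38, exceeded the within-group SD of 0.27.

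The lines were also compared over both ages and both states. In this balanced design the sampling error of that average is uncorrelated with the errors of the contrasts that chose the genes, but the average takes in the same exhausted HCR arrays, so it is not separate support for the differences after exhaustion. On that average 4 of the 6 genes were lower in HCR than in LCR by limma with Benjamini-Hochberg adjustment over the 9558 genes, where 4.43% of all tested genes were lower and 19.8% higher. Lpar6 differed by -0.52 ± 0.09 (SE, 24 arrays per line, limma adjusted p = 1.06e-05), Efna1 by -0.24 ± 0.05 (limma adjusted p = 0.000606), Rgs4 by -0.30 ± 0.08 (limma adjusted p = 0.00682) and Rnf125 by -0.16 ± 0.05 (limma adjusted p = 0.0109). Uts2r (-0.09 ± 0.12, limma adjusted p = 0.668) and Relt (-0.05 ± 0.07, limma adjusted p = 0.65) did not pass. Each of the 4 calls held when any one array was left out. With the arrays quantile-normalized once more, 958 genes were higher and 886 lower in HCR in place of 1891 and 423, and the 4 calls held.

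The line difference was split by state. At rest, HCR minus LCR was 0.09 ± 0.17 in young and 0.04 ± 0.17 in old rats for Lpar6, 0.10 ± 0.11 and 0.18 ± 0.11 for Efna1, -0.01 ± 0.17 and 0.40 ± 0.17 for Rgs4, and 0.31 ± 0.09 and 0.20 ± 0.09 for Rnf125. After exhaustion it was -1.01 ± 0.17 and -1.21 ± 0.17 for Lpar6, -0.56 ± 0.11 and -0.71 ± 0.11 for Efna1, -0.77 ± 0.17 and -0.81 ± 0.17 for Rgs4, and -0.47 ± 0.09 and -0.67 ± 0.09 for Rnf125. The lower average in HCR thus lay in the exhausted rats for these genes, and is largely another view of the differences on which they were chosen.

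**Figure D3:**
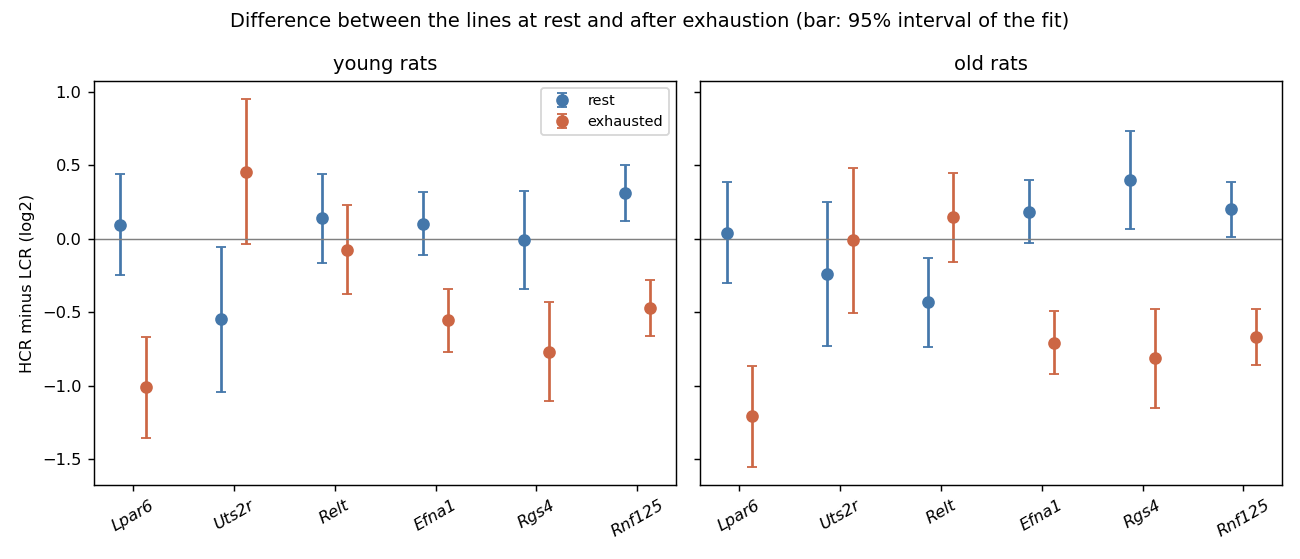
Difference in log2 expression between HCR and LCR rats (vertical axis) for the 6 genes (horizontal axis) at rest and after exhaustion, in young rats (left) and old rats (right); bars are 95% intervals of the fit. At rest the points of Lpar6, Efna1, Rgs4 and Rnf125 lie between -0.01 and 0.40, and after exhaustion between -1.21 and -0.47.

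Age was tested in the same way and with the same limit for Uts2r and Relt. Uts2r was lower in old than in young rats, with a difference of -1.12 ± 0.12 (limma adjusted p = 1.86e-09), a 2.17-fold difference, and it was the 1 gene of the 6 to pass, where 14.7% of all tested genes were lower and 7.82% higher in old rats. The age difference of Uts2r was -0.26 ± 0.24 in HCR and -0.57 ± 0.24 in LCR at rest, and -2.05 ± 0.24 and -1.59 ± 0.24 after exhaustion. Lpar6 (0.20 ± 0.09, limma adjusted p = 0.0948) and Rnf125 (0.11 ± 0.05, limma adjusted p = 0.0947) did not pass, nor did Rgs4 (-0.13 ± 0.08, limma adjusted p = 0.27), Efna1 (0.04 ± 0.05, limma adjusted p = 0.606) and Relt (-0.02 ± 0.07, limma adjusted p = 0.916). With median centring of the arrays Lpar6 at 0.23 (limma adjusted p = 0.0491) and Rnf125 at 0.14 (limma adjusted p = 0.0296) did pass.

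Whether the line difference changed with age (line by age) and whether the line difference in response changed with age (three-way) could also be tested. By limma 0 of the 6 genes passed in either comparison, nor did any of the 9558 tested genes, a share of 0%, with 787 and 682 genes at an unadjusted p under 0.05. Of the 6, 0 were at an unadjusted p under 0.05 in the first and 1 in the second. That 1 was Relt, whose three-way term was 0.79 ± 0.30 (limma adjusted p = 0.511). The HCR response of Lpar6 minus that of LCR differed between ages by -0.14 ± 0.34, with a 95% interval from -0.83 to 0.55, a wide interval at this number of arrays.

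Tendon markers moved with Uts2r. The mean of the 6 tendon markers (Tnmd, Scx, Mkx, Fmod, Chad and Thbs4) had group averages from 7.05 to 7.95 in young and from 5.58 to 6.16 in old rats. In young HCR rats it was 7.05 at rest and 7.95 after exhaustion, and in young LCR rats 7.71 and 7.89. At rest and after exhaustion it was 5.98 and 5.87 in old HCR rats and 6.16 and 5.58 in old LCR rats. On average over lines and ages 0 of the 6 markers passed by limma after exhaustion. The response in old minus that in young rats had a list median of -0.99, beside -0.01 over all tested genes. In that comparison 0 of the 6 markers passed by limma, or 2 were lower without the 3 arrays named above. At an unadjusted p under 0.05 were 4 of the 6, and 1065 of the 9558 tested genes. Of the 6 markers 4 were lower in old rats and 0 higher, and the median of the list was -2.14 for age beside -0.01 over all tested genes. Of 7 fibroblast markers 6 were also lower in old rats. Within groups Uts2r also followed this mean, with Pearson r = 0.644 and Spearman coefficient = 0.616 over deviations from group means on 48 arrays (within-group permutation test, two-sided, adjusted p = 0.00072 for both over 18 relations). Without the 2 arrays farthest from the median r was 0.599. With the tendon mean as a covariate the age difference of Uts2r was 0.09 ± 0.24 (limma adjusted p = 0.946), and the count of all genes past the threshold for age went from 2154 to 10. The tendon mean nearly separates the ages, so that age and tendon markers can hardly be told apart in that fit.

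**Figure D4:**
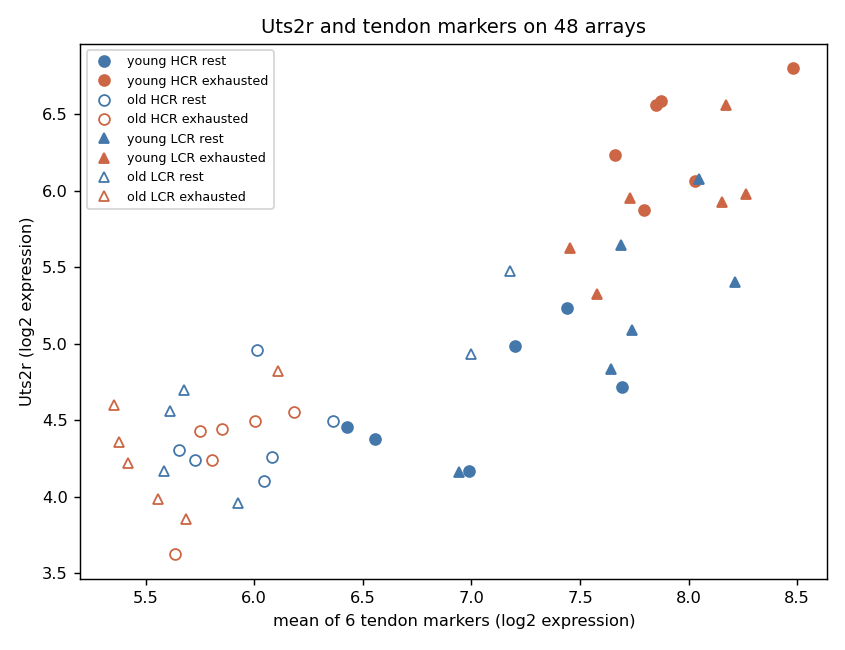
Uts2r (vertical axis) against the mean of 6 tendon markers (horizontal axis), both as log2 expression, on 48 arrays; circles are HCR, triangles LCR, filled young, open old, blue rest and orange exhausted. High Uts2r is found on arrays with high tendon markers. The young exhausted groups, with tendon means of 7.95 and 7.89, have the highest group means of both. Resting young LCR arrays averaged 7.71 for the tendon markers but 5.20 for Uts2r.

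Blood vessel markers are given beside Lpar6, Rgs4, Efna1 and Rnf125, since ephrin-A1 is a vessel ligand. The mean of 9 endothelial markers had group averages from 7.14 to 7.52, and between rest and exhaustion in HCR rats it was 7.40 and 7.45 in young and 7.50 and 7.52 in old. Of the 9, 2 rose and 2 fell after exhaustion, so the mean joins markers that moved apart. In young and old HCR rats Cldn5 differed by 1.06 and 0.98 and Esam by 0.64 and 0.34. Tek differed by -0.38 and -0.50 and Tie1 by -0.36 and -0.28. Between the lines 1 of the 9, Tek, had a lower response in HCR (-0.38, limma adjusted p = 0.0356) and 0 a higher one. Without the 3 arrays named above 0 passed. At an unadjusted p under 0.05 were 7 of the 9, in both directions, with a list median of -0.23. With the endothelial mean as a covariate the line differences of Lpar6, Efna1 and Rgs4 still passed, and that of Rnf125 was -0.16 (limma adjusted p = 0.123), no longer past the threshold. The mean of 6 smooth muscle and pericyte markers was 7.75 at rest and 7.44 after exhaustion in young HCR, 7.64 and 7.35 in old HCR, 7.68 and 7.57 in young LCR, and 7.43 and 7.52 in old LCR, and 3 of the 6 markers fell after exhaustion and 0 rose. The part of this list in the differences of Lpar6, Rgs4, Efna1 and Rnf125 was not tested. Within groups, Rgs4 followed this mean (r = 0.448, Spearman coefficient = 0.468, within-group permutation adjusted p = 0.0197 and 0.0154, r = 0.342 without the 2 farthest arrays). Efna1 followed the endothelial mean (r = 0.438, Spearman coefficient = 0.458, permutation adjusted p = 0.0197 and 0.0154, r = 0.423 without the 2 farthest). Past the threshold by Pearson's r alone were Relt with the endothelial mean (r = -0.458, Spearman coefficient = -0.360, permutation adjusted p = 0.0255 and 0.0787, r = -0.379 without the 2 farthest) and Lpar6 with the smooth muscle and pericyte mean (r = 0.364, Spearman coefficient = 0.344, permutation adjusted p = 0.0312 and 0.0787, r = 0.303 without the 2 farthest). The other 13 of the 18 relations did not pass. For Rnf125 no relation to any of the 3 marker means reached an r of 0.05 in size. Of 8 macrophage markers 6 rose after exhaustion and 0 fell, and their part was not tested. Of 6 liver markers 5 fell and 0 rose, or 1 fell without the 3 arrays named above, and with their mean as a covariate no value of the 6 genes moved by more than 0.053. All 5 slow fibre markers were higher in HCR, and the 6 lymphocyte and 4 neutrophil markers were too dim to test.

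Deviations from the group means, which did not enter the choice of the genes, were compared between the 6 genes. Of 15 pairs, 2 passed after Benjamini-Hochberg adjustment by both coefficients. Lpar6 and Rgs4 varied together from rat to rat (Pearson r = 0.651, Spearman coefficient = 0.606, within-group permutation test, two-sided, adjusted p = 0.0003 and 0.00135). The sign was positive in 7 of 8 groups, and r was 0.603 without the 2 arrays farthest from the median of Lpar6. Efna1 and Rgs4 varied together more weakly (r = 0.432, Spearman coefficient = 0.415, permutation adjusted p = 0.019 and 0.0409), with r = 0.349 without the 2 arrays farthest from the median of Efna1. Lpar6 and Efna1 reached r = 0.402 and did not pass (permutation adjusted p = 0.09). Rnf125, although its group means resemble those of Lpar6, had an r of 0.167 with Lpar6 and 0.062 with Rgs4. Over all tested genes the median size of r within groups was 0.108 for Lpar6 and 0.128 for Rgs4.

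Over the 48 arrays, group differences included, the named genes most like each of the 6 were sought by Pearson r, as a description. Lpar6 was most like Rgs4 (0.886), Tnfsf10 (0.877), which encodes the death ligand TRAIL, and Efna1 (0.876). Rgs4 and Efna1 were each most like Lpar6, and then came Aplnr, the apelin receptor gene, at 0.864 and 0.863. Rnf125 was most like Lpar6 (0.821), Aplnr (0.795) and Efna1 (0.765). Uts2r was most like Prelp (0.881), Thbs2 (0.855) and Fmod (0.833), genes of extracellular matrix proteins. Relt was most like Slc43a2 (0.803), an amino acid transporter gene, Abhd4 (0.735) and Psmd1 (0.731), a proteasome subunit gene. Lpar6 overlaps Rb1 in the RefSeq table, and Rb1 was lower after exhaustion, at -0.15 ± 0.04 (limma adjusted p = 0.00794). The response of Rb1 in HCR minus that in LCR was 0.08.

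The 9 lists of ligands, receptors, effectors and relatives, 82 tested genes besides the 6, gave the surroundings of these genes. In them 12 genes rose and 9 fell after exhaustion on average, and 3 had a higher and 6 a lower response in HCR. Over all tested genes 6.52% rose and 9.61% fell, and 1.07% had a higher and 1.04% a lower response in HCR. The same shares stand beside the counts of each list below. The lists were drawn up with some of these results known, Aplnr and Tnfsf10 among them, so the counts are no independent evidence of a direction. The median over all tested genes was -0.03 in both comparisons.

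Among 8 genes of lysophosphatidic acid receptors and metabolism 1 fell and 0 rose, with a median of -0.09. The 1 was Lpar4 (-0.41 ± 0.09, limma adjusted p = 0.0012), a close relative of Lpar6, whose differences were -0.77 and -0.38 in young and old HCR and -0.30 and -0.18 in young and old LCR. Lpar1, the first known receptor of this lipid, was -0.16 ± 0.09 and did not pass. Of 6 genes known as targets of the coactivator YAP 5 rose and 0 fell, with a median of 0.35. Ccn1 and Ccn2, which encode secreted matrix proteins, rose by 0.70 ± 0.14 and 0.59 ± 0.08, Amotl2 by 0.45 ± 0.07 and Lats2 by 0.24 ± 0.05. Ccn1 had its larger differences in LCR rats, at 1.45 and 0.99 in young and old LCR and 0.31 and 0.06 in young and old HCR.

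Of 7 other RGS genes tested, 2 rose and 0 fell, and neither followed Rgs4. Rgs2, which acts on Gq, rose by 0.97 ± 0.11 on average, by 1.64 and 1.23 in young and old HCR and by 0.57 and 0.42 in young and old LCR. Its response in HCR minus that in LCR, 0.94 (limma adjusted p = 0.0068), had the opposite sign to that of Rgs4. Rgs16 rose by 0.45 ± 0.08. Among 12 vasoactive receptors 3 rose and 4 fell. Aplnr fell by 0.91 ± 0.09, with -1.79 and -1.49 in young and old HCR and -0.39 and 0.04 in young and old LCR. S1pr1, a sphingosine phosphate receptor gene of endothelium, rose by 0.54 ± 0.06, its relative S1pr3 fell by 0.35 ± 0.06, and the prostaglandin receptor gene Ptger4 rose by 0.60 ± 0.11. Of the 5 genes of the Gq pathway that urotensin II uses, 0 passed by limma after exhaustion and 0 were at an unadjusted p under 0.05, with Plcb3 at 0.07 and Itpr1 at 0.06.

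Of 10 ephrins and Eph receptors, 1 rose and 1 fell: Efna2 at 0.25 ± 0.08 and the receptor gene Epha4 at -0.21 ± 0.06. Efnb2, singled out after its values were seen, had a lower response in HCR (-0.48, limma adjusted p = 0.0108). It was the 1 gene of the list to do so, and with quantile normalization or median centring 2 did. Among 17 tumour necrosis factor receptors and partners of RELT 0 passed by limma after exhaustion, 3 were at an unadjusted p under 0.05, and Tnfrsf11b and Eda2r had the largest differences at 0.27 ± 0.10 and -0.23 ± 0.20. With median centring of the arrays 2 of the 17 rose. Of 7 ligands of that superfamily 1 fell and 0 rose, or 2 and 1 without the 3 arrays named above. The 1 was Tnfsf10, at -0.69 ± 0.10, with -1.25 and -1.04 in young and old HCR and -0.21 and -0.26 in young and old LCR. Among 10 relatives of Rnf125 and genes of the RIG-I pathway 1 rose and 2 fell, or 3 fell without those 3 arrays. Rnf135 and Trim25, ubiquitin ligase genes that promote RIG-I signalling, had differences of -0.45 ± 0.10 and -0.24 ± 0.06, both past the threshold. Both had a lower response in HCR, at -0.83 (limma adjusted p = 0.0179) and -0.49 (limma adjusted p = 0.013), and Rnf166 rose by 0.14 ± 0.05.

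**Figure D5:**
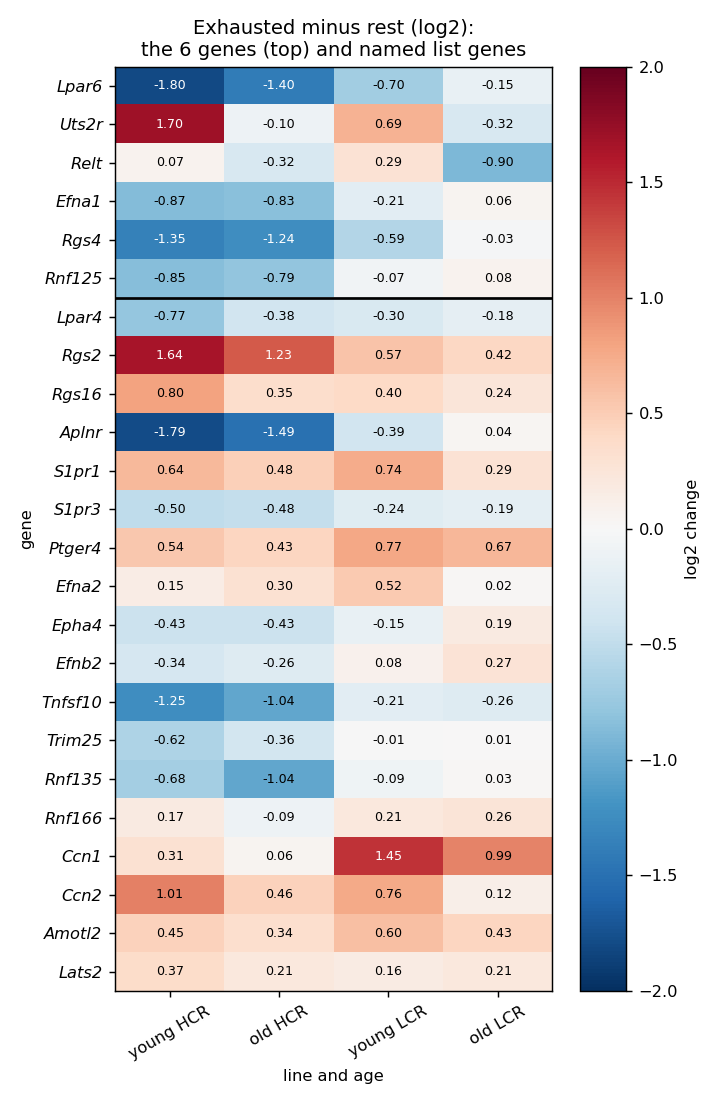
Difference in log2 expression between exhausted and resting rats for the 6 genes (above the line) and 18 genes of the lists (rows), by line and age (columns); colour and printed number give the difference. Aplnr, Tnfsf10, Rnf135 and Trim25 are lower mainly in the HCR columns, as Lpar6 is, and Rgs2 is higher there.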

How the data were processed

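The authors deposited 1 log2 value for each probe set on each array. Expression Console is named in the series text, whereas RMA and oligo appear in the submitters' processing notes with no version, and it is not stated in the sources used here which of them gave the values. Per the labels, biotin-labelled cDNA was prepared from total RNA. An array gives no read depth, and the number of arrays limits the precision.

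Of 36685 probe sets, 14824 named exactly 1 gene in the platform table, and the brightest stood for each of 14557 genes. Of the 14824, 14670 matched a current rat gene record by Entrez identifier. Tests were made for genes above 4.54, the overall median, on 6 or more arrays. limma 3.58.1 in R 4.3.3 fitted 1 mean for each of the 8 groups with 40 residual degrees of freedom. Contrasts were tested two-sided with Benjamini-Hochberg adjustment over the 9558 genes, at 0.05. Errors after ± are standard errors of the fit. Exercise, line by exercise and age by exercise chose the 6 genes and gave no test for them. Within-group correlations used 100000 permutations within groups in Python 3.11.15 and were tested on simulated data, as was the fit. Relations to marker means were added after seeing the data.

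The 6 genes, the lists and the markers were chosen with earlier results of these data known. From each list up to 4 other genes past the threshold after exhaustion were named, by size, or up to 2 where none passed, and for each of the 6 genes the 3 most like it. Other scalings, filters, weights, covariates and sets of arrays were tried. Each of the 6 genes has 1 row, so that averaging rows gave nothing further. A further gene list is not reported here. Sequences are from RefSeq, and the windows of all 6 genes were found.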

Additional observations from a re-analysis of the deposited data

Results flagged for a closer look

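Of the 48 combinations of gene and group, 3 held an array that stood apart from the other 5, and about 1 in 20 groups would do so by chance. Uts2r was 3.62 in old HCR exhausted replicate 5, the lowest of its group. Relt was 7.29 in young HCR exhausted replicate 2, the lowest of its group. Efna1 was 7.50 in young LCR exhausted replicate 1, the lowest of its group.

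Differences after exhaustion that differed between the lines, HCR minus LCR, were -1.18 for Lpar6, -0.77 for Efna1, -0.99 for Rgs4 and -0.83 for Rnf125. Those that differed between ages, old minus young, were -1.40 for Uts2r and -0.79 for Relt. The 6 genes were chosen on these differences, which are therefore given as values only.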

How the results depend on the processing

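Of 504 alternative values of the 6 genes in the 7 comparisons, 486 counted as unchanged. In the comparisons tested for the 6 genes this meant the same direction and side of the threshold. In exercise, line by exercise and age by exercise it meant a shift smaller than the within-group SD, without reversal of a called value. The line differences of Lpar6, Efna1 and Rgs4 passed in every alternative run; that of Rnf125 did not with the endothelial mean as a covariate (-0.16). With the tendon mean, an alternative chosen after seeing the data, Uts2r was 0.085 for age, 0.00096 for line and -0.80 for age by exercise, Efna1 was -0.066 for age and Relt 0.42 for age. The cause of these shifts was not tested. Relt for age was 0.011 with quantile normalization, 0.015 with median centring and 0.019 with the endothelial mean, and 0.13 for line with the latter. With 1 array left out Uts2r for line by age lay between -0.17 and 0.024, Efna1 between -0.079 and 0.0037 and Relt for age between -0.037 and 0.025, none past the threshold. Of the 6 genes 3 passed for age with quantile normalization and with median centring, where 2360 and 2251 of all genes passed, 0 with the tendon mean, and from 1 to 2 with 1 array left out, where Lpar6 passed at 0.23 without young HCR rest replicate 1.

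Over all genes, array weights gave 335 calls for line by exercise in place of 201, 86 for age by exercise in place of 24, 3 for line by age and 3 for three-way. Age by exercise had 13 calls without a filter, 0 with the tendon mean and 13 to 91 with 1 array left out, the lowest without young HCR rest replicate 6 and the highest without old LCR rest replicate 3. Line by age, with 0 calls as reported, had 2 under quantile normalization, median centring and the robust trend, 1 under the stricter filter and the tendon mean, and 0 to 3 with 1 array left out. Three-way had 0 to 17 with 1 array left out. The endothelial mean left 671 calls for line in place of 2314, and the tendon mean 10 for age in place of 2154. No paired analysis was possible because the labels give no replicate numbers shared between groups.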
